A study of Macaca mulatta with 16 samples.

Results

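The interleukin-6 (IL-6) cytokine family and its shared signalling receptor, gp130, were followed through 10 genes in fetal lungs of rhesus macaques. The members were chosen by symbol: the ligands IL6 (ENSMMUG00000019983), IL11 (ENSMMUG00000048355), LIF (ENSMMUG00000048630) and OSM (ENSMMUG00000005545), the receptors IL6ST (ENSMMUG00000001893, which encodes gp130), IL6R (ENSMMUG00000022978), LIFR (ENSMMUG00000007386) and OSMR (ENSMMUG00000001609), the transcription factor STAT3 (ENSMMUG00000010707) and the inhibitor SOCS3 (ENSMMUG00000058428). Each had 1 row among the 22515 genes of the deposited table, and 10 of 10 passed the filter on low counts that left 19199 genes to test. The 16 animals, 1 left-lung RNA library each, formed 5 groups. The 4 preterm controls had no intervention and were delivered at 131 to 135 days of gestation. The LPS 16h group (4 animals) was given 1 mg of LPS, a bacterial endotoxin, by injection into the amniotic fluid at 129 or 130 days and delivered 16 hours later at 130 or 131 days. The LPS 5d group (3 animals) had the same dose at 126 to 129 days and was delivered 5 days later, at 131 to 134 days. The LPS + Beta-Ac 5d group (3 animals) had that LPS dose plus 0.125 mg/kg of betamethasone acetate, a long-acting corticosteroid given to the pregnant dam by intramuscular injection, at 126 or 127 days, and was delivered 5 days later at 131 or 132 days. The 2 term controls had no intervention and were delivered at 156 and 157 days. No group was given saline, so the injection itself and LPS cannot be told apart, and animals given Beta-Ac alone were not analysed here.

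Cytokines of the IL-6 family bind a private receptor chain and, for nearly all of them, gp130, the chain that they share for signalling. IL-6 uses IL6R with gp130, LIF uses LIFR with gp130, and oncostatin M (the product of OSM) uses OSMR with gp130 and can in primates also use LIFR. The bound receptors activate JAK kinases, which phosphorylate STAT3. STAT3 then turns on acute-phase genes and also SOCS3, whose protein binds gp130 and damps the signal. In the lung the family is known for its part in the response to bacterial products and in epithelial repair.

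Library totals ran from 20169363 to 28348816 counts in preterm controls, 30596371 to 48052891 in LPS 16h and 20214144 to 27616930 in the other groups. The deeper LPS 16h libraries resolve low counts better than the rest. Levels are given as counts per 1000000 counts of a library (CPM) after trimmed-mean (TMM) scaling, and they are not corrected for gene length, so 1 gene can be compared between animals but levels of different genes cannot be ranked. Fold changes are on the scale of log2 CPM with 2 counts added, which understates the change of genes near 0. A gene was called where limma gave an adjusted p under 0.05 over the 19199 genes and the fold change was at least 2. Markers of lung epithelium summed to 5991 to 17005 CPM in the 16 libraries. Whole tissue was sequenced, so a different number of cells of a type and a different amount of RNA per cell cannot be told apart. The labels give 1 library per animal and no sex, batch or litter. P-values set a difference of group means against the spread between these animals only, with 1 estimate shared by all 5 groups. Over all genes tested, the 2 term controls were the least alike of any group, with a root mean square difference of 0.642 in log2 CPM, and each was nearer to an LPS 5d library than to the other. Among preterm controls animal 209 was farthest from its group (0.606), and in LPS 16h animal 029 (0.619). The calls were therefore also made without each animal in turn and without animals 209 and 200 together. All 4 comparisons with preterm controls use the same 4 control libraries and are not independent of each other.

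At 16 hours after LPS the family rose in most of its parts. Of the 10 members, 8 were called higher in LPS 16h than in preterm controls (IL6, IL11, LIF, OSM, IL6R, OSMR, STAT3 and SOCS3), and 0 were called lower, where 8.25% of all genes tested were called higher and 6.11% lower. The members' median log2 fold change was 2.83, beside -0.09 over all genes. In LPS 5d 4 of 10 were called higher than in preterm controls (IL11, OSM, LIFR and SOCS3) and 0 lower, where 2.6% of genes were called higher and 2.24% lower, and the members' median was 0.86 beside 0.00 over all genes. In LPS + Beta-Ac 5d 4 of 10 were called higher (IL6, IL11, OSM and LIFR) and 0 lower, where 4.05% of genes were called higher and 2.44% lower, and the median was 1.02 beside -0.01. In term controls 3 of 10 were called higher (IL6, OSM and SOCS3) and 0 lower, where 1.11% of genes were called higher and 0.953% lower, and the median was 0.85 beside -0.01. The term calls depended on single animals: without term control 200, 1 member was called, and it was LIFR. IL6 was also lost without term control 201 or preterm control 092 or 101, and SOCS3 without preterm control 113 (adjusted p = 0.0544).

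**Figure D1:**
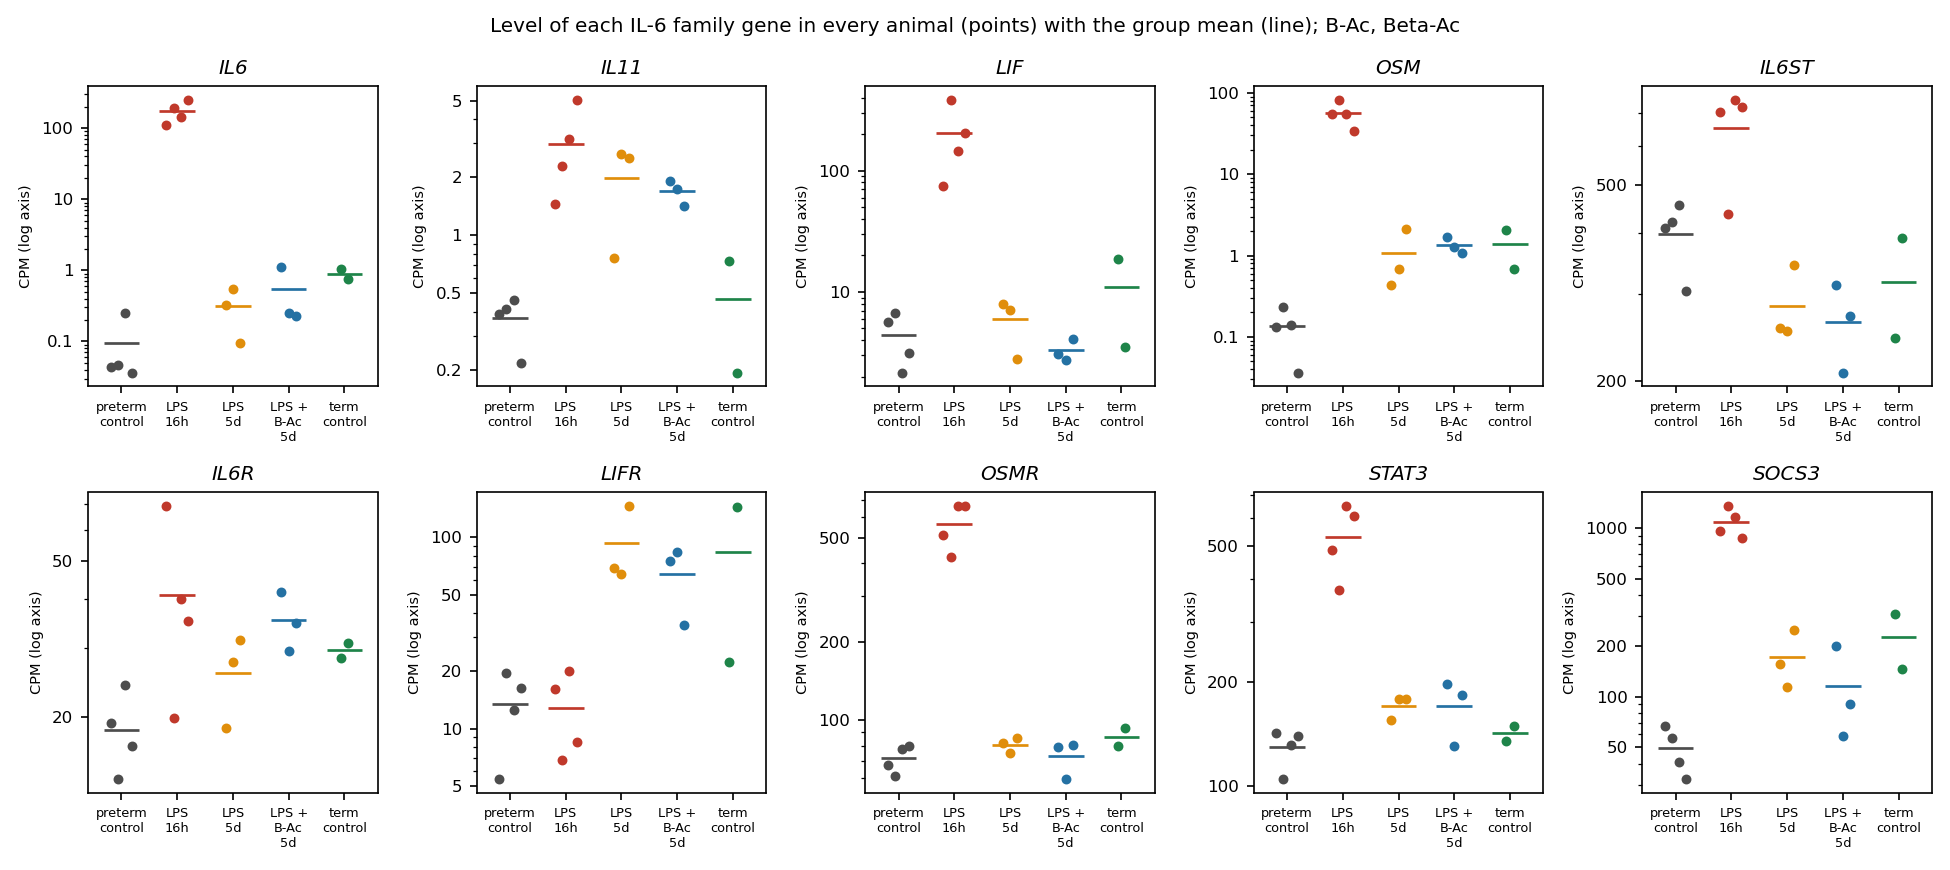
The CPM of each of the 10 genes is plotted on a log axis for every animal (points) in the 5 groups, with the group mean as a line. IL6, LIF, OSM, OSMR, STAT3 and SOCS3 lay higher in all 4 LPS 16h animals than in any other animal, while LIFR lay higher in LPS 5d and LPS + Beta-Ac 5d than in preterm controls or LPS 16h.

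**Figure D2:**
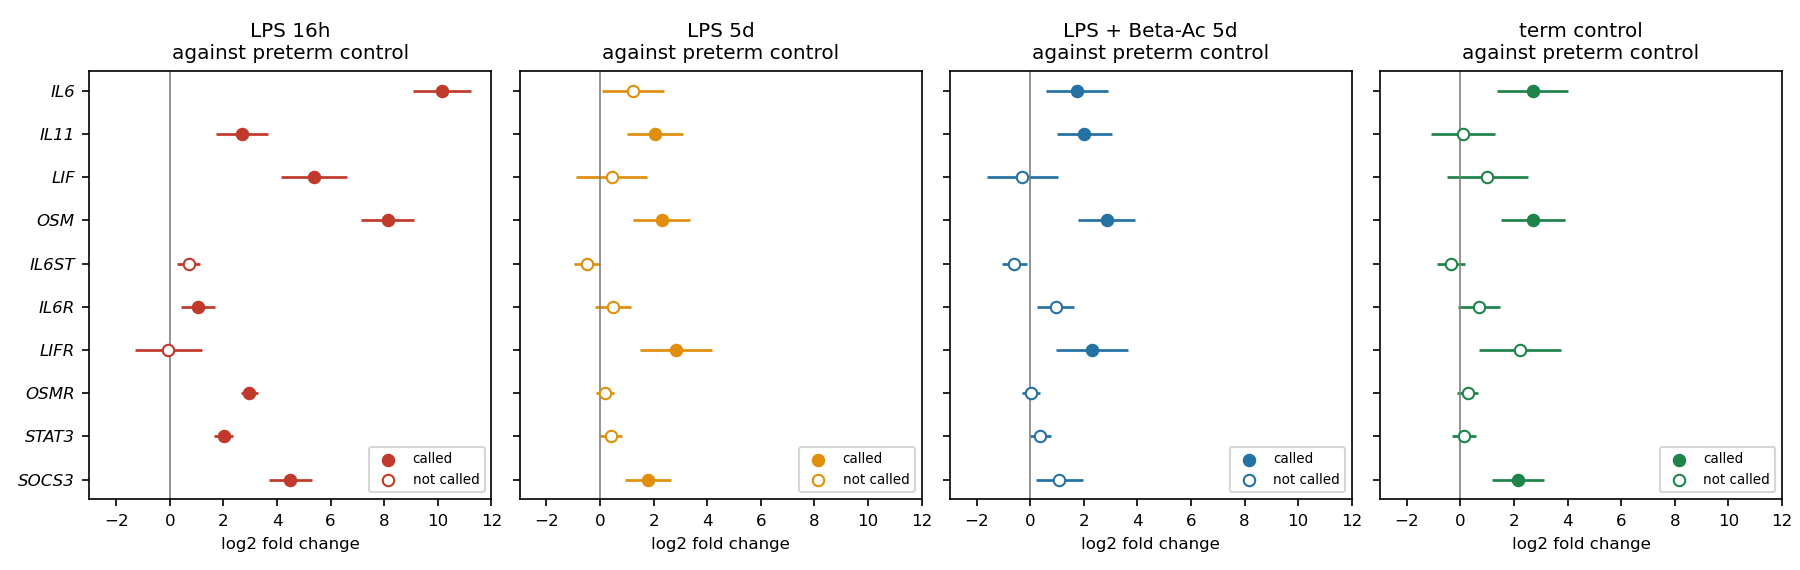
The fitted log2 fold change of each gene against preterm controls is plotted for the 4 other groups, with 95% confidence intervals as lines, filled points for called genes and open points for the rest. IL6 reached 10.16 and OSM 8.13 at 16 hours, and no point passed 3 in the other groups.

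IL6 encodes the founding cytokine of the family. Its protein was not measured here. The authors of the study reported raised IL-6 protein in amniotic and fetal lavage fluid 5 days after LPS, with or without Beta-Ac. The IL6 transcript was close to absent without recent LPS. It stood at 0.0435, 0.0463, 0.248 and 0.0364 CPM in the 4 preterm controls, at 109.7, 191, 144 and 252 CPM in LPS 16h, at 0.327, 0.537 and 0.0951 CPM in LPS 5d, at 1.13, 0.254 and 0.231 CPM in LPS + Beta-Ac 5d, and at 1.03 and 0.744 CPM in term controls. The LPS 16h animals lay far above every other animal, and the LPS 5d range still overlapped that of preterm controls. The control values were 1, 1, 7 and 1 counts, so the fitted log2 fold change at 16 hours, 10.16 ± 0.51 (SE, adjusted p = 1.53e-09), depends on the added count. The ratio of the pooled counts (25140 in LPS 16h and 10 in preterm controls, scaled for library size) was 1757, with a 95% interval of 955 to 3665 that covers counting error only. At 5 days after LPS the fitted difference from preterm controls was 1.23 (95% interval 0.06 to 2.40) and did not pass the test (adjusted p = 0.154). It passed in LPS + Beta-Ac 5d (log2 fold change 1.75, adjusted p = 0.0384), where animal 113 of the preterm controls, at 0.248 CPM, overlapped the treated range. Without LPS + Beta-Ac animal 248 that call was lost (1.12, adjusted p = 0.199), and it was also lost without preterm control 092, 101 or 209. With limma-voom it was lost as well (2.21, adjusted p = 0.253). Both term controls lay above all preterm controls (log2 fold change 2.70, adjusted p = 0.0283). That call was lost in 7 of 13 alternatives, among them those without term control 200 (adjusted p = 0.190) or 201 (0.0825), without preterm control 092 (0.0696) or 101 (0.0613), and with limma-voom (0.147).

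OSM, which encodes oncostatin M, a cytokine made mainly by activated myeloid cells, had a similar course. Preterm controls held 0.131, 0.232, 0.142 and 0.0364 CPM and LPS 16h animals 54.5, 82.4, 55.2 and 34.1 CPM. The later groups fell between these ranges, with 0.436, 0.691 and 2.14 CPM in LPS 5d, 1.70, 1.27 and 1.08 CPM in LPS + Beta-Ac 5d, and 2.06 and 0.680 CPM in term controls. No animal of the other 4 groups lay within the preterm range. The log2 fold change was 8.13 ± 0.46 at 16 hours (SE, adjusted p = 4.86e-09), 2.30 in LPS 5d (adjusted p = 0.00648), 2.86 in LPS + Beta-Ac 5d (adjusted p = 0.00120) and 2.72 in term controls (adjusted p = 0.0176). The 4 control libraries held 13 counts in all, against 8187 in LPS 16h, a pooled ratio of 440.2 with a counting interval of 257 to 827. The same ratio was 7.74 (4.27 to 15.2) in LPS 5d, 10.4 (5.83 to 20.2) in LPS + Beta-Ac 5d and 10.2 (5.64 to 20.1) in term controls. With limma-voom in place of limma with a trend, OSM was no longer called in LPS 5d (adjusted p = 0.122) or in term controls (adjusted p = 0.126).

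LIF, leukaemia inhibitory factor, was detected in every library before and after LPS. Its levels were 5.66, 6.67, 2.17 and 3.13 CPM in preterm controls and 74.8, 385, 146 and 206 CPM in LPS 16h. By 5 days they were 8.02, 7.06 and 2.80 CPM with LPS alone and 3.05, 2.76 and 4.13 CPM with Beta-Ac. The LPS 16h animals were separate from all others, and the 5-day groups overlapped preterm controls. The log2 fold change at 16 hours was 5.39 ± 0.57 (SE, adjusted p = 6.00e-06), and it was 0.43 in LPS 5d (95% interval -0.90 to 1.76) and -0.29 in LPS + Beta-Ac 5d (-1.62 to 1.04). Of the term controls, animal 200 held 18.5 CPM and animal 201 held 3.53 CPM, within the preterm range. In the rhesus assembly T2T-MMU8v2.0, which is not the build of these counts, LIF and OSM are neighbours on 1 chromosome with 0 protein-coding genes between them, and so are LIFR and OSMR.

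IL11, a ligand of the family linked to airway remodelling and fibrosis, was low in every group and was called higher than in preterm controls at both times after LPS. Preterm controls held 0.392, 0.417, 0.461 and 0.219 CPM, LPS 16h animals 1.46, 2.29, 3.15 and 5.06 CPM, LPS 5d animals 0.763, 2.65 and 2.52 CPM, and LPS + Beta-Ac 5d animals 1.92, 1.74 and 1.43 CPM. All 10 animals given LPS lay above the 4 preterm controls. The log2 fold change was 2.69 ± 0.45 at 16 hours (SE, adjusted p = 0.000266), 2.06 in LPS 5d (adjusted p = 0.0110) and 2.02 in LPS + Beta-Ac 5d (adjusted p = 0.00967). Between LPS 16h and LPS 5d it was 0.62, with a 95% interval of -0.42 to 1.66 (adjusted p = 0.352), which includes both no difference and a 2-fold one. The LPS 5d call was lost without animal 240 or animal 242 (adjusted p = 0.0619 and 0.0515). Term controls held 0.736 and 0.194 CPM, on either side of the preterm range. A gene for its private receptor chain, IL11RA, was not analysed here.

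IL6ST, the gene of gp130 itself, had a smaller fold change at 16 hours than any of the 4 ligands. It stood at 409.6, 422, 456 and 304 CPM in preterm controls, at 706, 437, 746 and 723 CPM in LPS 16h, at 257, 253 and 345 CPM in LPS 5d, at 314, 208 and 271 CPM in LPS + Beta-Ac 5d, and at 245 and 391 CPM in term controls. In LPS 16h 3 of 4 animals lay above all preterm controls, and animal 029 lay within their range. The log2 fold change at 16 hours was 0.70 ± 0.21 (SE, adjusted p = 0.0141), past the p threshold and short of the 2-fold minimum. At 5 days the fitted values were below those of preterm controls, by log2 fold changes of -0.48 in LPS 5d (adjusted p = 0.170) and -0.59 in LPS + Beta-Ac 5d (adjusted p = 0.0809), and neither passed.

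IL6R, the private receptor chain for IL-6, which can also be shed as a soluble receptor, held 19.3, 13.8, 24.0 and 16.8 CPM in preterm controls and 69.1, 19.8, 39.9 and 35.1 CPM in LPS 16h. LPS 16h animal 029 lay inside the control range and animal 026 well above the other 3. The gene was called at 16 hours with a log2 fold change of 1.03 ± 0.30 (SE, adjusted p = 0.0127), only just past the 2-fold minimum, and it fell below that minimum without preterm control 101 or 209, without LPS 16h animal 026 (0.76) and when library totals alone were used for scaling (0.83). It stood at 18.7, 27.6 and 31.5 CPM in LPS 5d, at 41.8, 29.5 and 34.8 CPM in LPS + Beta-Ac 5d and at 28.2 and 30.9 CPM in term controls. All 3 LPS + Beta-Ac and both term animals lay above the preterm controls, but the differences of 0.95 (adjusted p = 0.0555) and 0.70 (adjusted p = 0.322) did not pass.

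OSMR, the private receptor chain for oncostatin M, rose at 16 hours and was close to its control level at 5 days. Its levels were 67.7, 61.1, 77.4 and 79.7 CPM in preterm controls, 512, 424, 661 and 660.4 CPM in LPS 16h, 81.7, 75.0 and 85.3 CPM in LPS 5d, 79.2, 59.6 and 80.1 CPM in LPS + Beta-Ac 5d, and 79.4 and 93.7 CPM in term controls. The LPS 16h animals were separate from all 12 others, which together spanned 59.6 to 93.7 CPM. Its log2 fold change at 16 hours, 2.96 ± 0.15 (SE, adjusted p = 1.49e-09), had the smallest standard error of the 10 members in that comparison. The 95% interval was -0.16 to 0.53 in LPS 5d, -0.32 to 0.37 in LPS + Beta-Ac 5d and -0.11 to 0.67 in term controls, so that a 2-fold difference lay outside all 3.

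LIFR, the chain that pairs with gp130 for LIF, had a different course. Preterm controls held 5.44, 19.5, 12.5 and 16.2 CPM and LPS 16h animals 16.1, 6.81, 19.98 and 8.52 CPM, and these ranges overlapped throughout (log2 fold change -0.05, 95% interval -1.30 to 1.20, adjusted p = 0.957). LPS 5d animals held 69.5, 64.3 and 145 CPM and LPS + Beta-Ac 5d animals 75.4, 83.6 and 34.7 CPM, all above every preterm control and every LPS 16h animal. The log2 fold change was 2.83 ± 0.63 in LPS 5d (SE, adjusted p = 0.00922) and 2.31 ± 0.63 in LPS + Beta-Ac 5d (SE, adjusted p = 0.0216). The second of these calls was lost without preterm control 092 (adjusted p = 0.0612) or without LPS + Beta-Ac animal 248 or 249 (adjusted p = 0.0831 and 0.0938). The term controls differed widely from each other, at 22.3 CPM in animal 200 and 144 CPM in animal 201. Both lay above the preterm controls, and the log2 fold change of 2.22 (adjusted p = 0.103) passed only when animal 200 was left out (3.57, adjusted p = 0.0494).

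The paired receptors OSMR and LIFR therefore moved at different times. The difference between their levels within an animal, OSMR minus LIFR in log2 CPM, averaged 2.55 in preterm controls (1.65 to 3.62), 5.56 in LPS 16h (4.98 to 6.27), -0.10 in LPS 5d (-0.77 to 0.23), 0.26 in LPS + Beta-Ac 5d (-0.49 to 1.20) and 0.60 in term controls (-0.62 to 1.83). As levels are not per length, only the shift of this difference between groups can be read, and no test was made of it. The LPS 16h range lay above and the 2 LPS 5-day ranges lay below that of preterm controls.

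**Figure D3:**
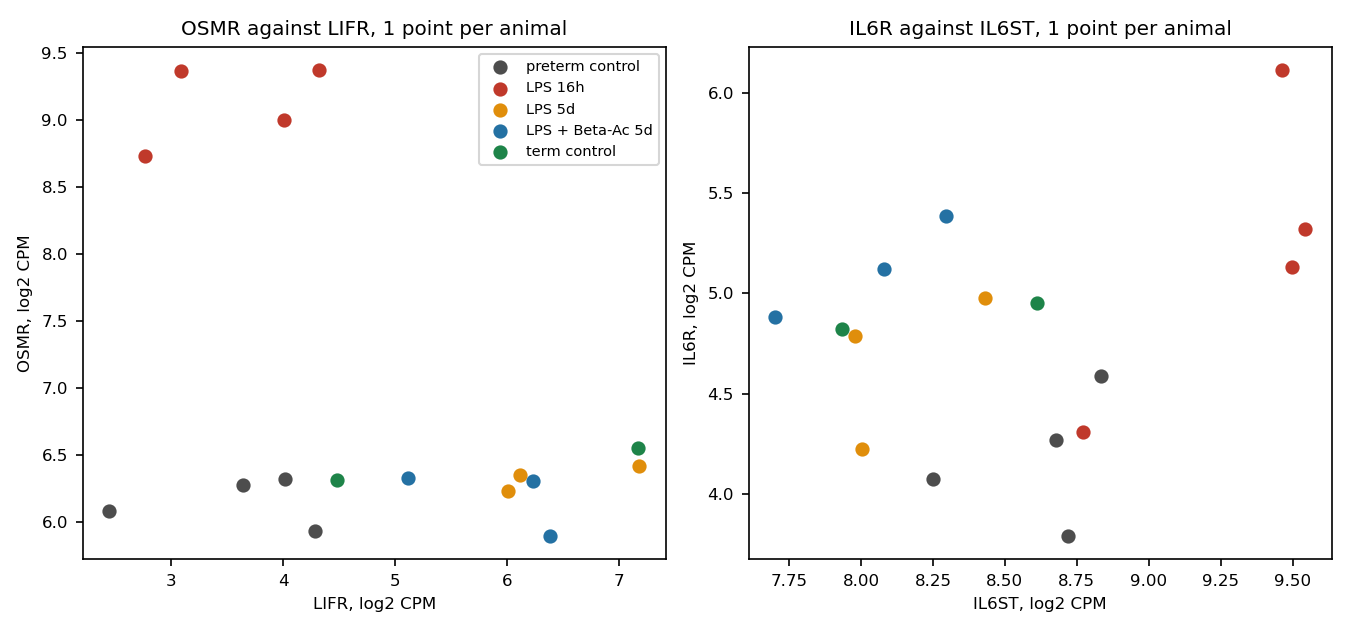
Each point is 1 animal, with LIFR against OSMR (left) and IL6ST against IL6R (right), both in log2 CPM and coloured by group. LPS 16h animals are raised along the OSMR axis with LIFR as in preterm controls, and 5-day animals are shifted along the LIFR axis with OSMR near its preterm level.

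STAT3, the transcription factor downstream of gp130, held 143, 105, 132 and 139.6 CPM in preterm controls and 487, 370.1, 651 and 611 CPM in LPS 16h. The groups were separate, and the log2 fold change was 2.01 ± 0.17 (SE, adjusted p = 3.51e-07). The levels at 5 days were 155, 179 and 179.6 CPM with LPS alone, 198, 131 and 184 CPM with Beta-Ac, and those of term controls 135 and 149.7 CPM. All 3 LPS 5d animals were above the preterm controls, by a log2 fold change of 0.41 that did not pass (adjusted p = 0.168). These are transcript levels, and the phosphorylation that activates STAT3 was not measured.

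SOCS3, the inhibitor that STAT3 induces, rose at 16 hours and was still raised at 5 days after LPS alone. Preterm controls held 67.1, 56.9, 40.8 and 32.5 CPM, LPS 16h animals 966, 1350.2, 1160.0 and 870.1 CPM, LPS 5d animals 156, 114 and 248 CPM, LPS + Beta-Ac 5d animals 199, 58.1 and 89.9 CPM, and term controls 309 and 146 CPM. The log2 fold change was 4.50 ± 0.37 at 16 hours (SE, adjusted p = 4.43e-07), 1.79 in LPS 5d (adjusted p = 0.00922) and 2.16 in term controls (adjusted p = 0.0208). It was 1.09 in LPS + Beta-Ac 5d, where animal 249 lay in the control range and the test was not passed (adjusted p = 0.0789). Without animal 249 it was 1.52 and was called (adjusted p = 0.0275). By group mean the order was LPS 16h, term control, LPS 5d, LPS + Beta-Ac 5d and preterm control, and the 3 groups in the middle overlapped each other.

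The question of whether Beta-Ac altered the family 5 days after LPS was addressed by setting LPS + Beta-Ac 5d against LPS 5d. By limma 0 of the 10 members were called in either direction, where 0.0885% of all genes were called higher and 0% lower. At an unadjusted p under 0.05 the number was also 0, and limma-voom called 0. The intervals were wide for most genes. The log2 difference (LPS + Beta-Ac 5d minus LPS 5d) was 0.52 for IL6 (95% interval -0.73 to 1.77), -0.72 for LIF (-2.15 to 0.70), -0.52 for LIFR (-1.97 to 0.93), -0.69 for SOCS3 (-1.62 to 0.23) and -0.04 for IL11 (-1.15 to 1.07). It was 0.56 for OSM (-0.57 to 1.69) and 0.47 for IL6R (-0.27 to 1.20). A 2-fold change in at least 1 direction lay within the intervals of these 7 genes. It lay outside the intervals of STAT3 (-0.45 to 0.40), OSMR (-0.52 to 0.21) and IL6ST (-0.62 to 0.39). That SOCS3 was called against preterm controls in LPS 5d and not in LPS + Beta-Ac 5d, and IL6 the other way round, does not show that these genes differed between the 2 treated groups.

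The LPS 16h and LPS 5d groups were compared directly to ask which changes were transient. Of the 10 members 7 were called higher at 16 hours and 1 lower, where 7.94% of all genes were called higher and 6.66% lower. The log2 difference (LPS 16h minus LPS 5d) was 8.93 for IL6 (adjusted p = 3.12e-08), 5.83 for OSM (5.41e-07), 4.96 for LIF (3.28e-05), 2.78 for OSMR (1.51e-08), 2.71 for SOCS3 (0.000140), 1.60 for STAT3 (1.08e-05) and 1.18 for IL6ST (0.000737), all p-values being adjusted ones from limma. LIFR was lower at 16 hours by -2.88 (adjusted p = 0.00282). IL6R (0.55, 95% interval -0.13 to 1.24) and IL11 were not called. The LPS 5d animals served as the comparison group here and as a treated group against preterm controls, so the calls at 5 days share those libraries.

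The wider gp130 pathway was covered by 6 further lists of genes that are not members, 41 of which were tested. In LPS 16h 23 of 41 were called higher and 1 lower than in preterm controls. The 41 include HAMP and LBP, targets of STAT3 that passed the filter on low counts only through LPS 16h. Of all genes tested, 8.25% were called higher and 6.11% lower. The median log2 fold change of the 41 was 1.38 beside -0.09 over all genes. By role, 0 of 3 other ligands, 0 of 3 other receptors and 0 of 2 sheddases (ADAM10 and ADAM17, proteases that release receptor ectodomains) were called. With lists of 2 or 3 genes, a count of 0 does not set them apart from all genes. The transducers called higher included JAK2 (log2 fold change 1.68, adjusted p = 2.13e-05), a kinase bound to gp130, and STAT5A (1.38, adjusted p = 9.89e-06), a transcription factor activated by JAK kinases. The other transducers include JAK1, also a gp130-bound kinase, at 0.87 (adjusted p = 2.07e-05), short of the 2-fold minimum, and TYK2 at -0.18 (adjusted p = 0.201).

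Of the 6 other inhibitors 5 were called higher at 16 hours: CISH (log2 fold change 2.65), the phosphatases PTPN2 (1.78) and PTPN6 (1.35), SOCS2 (1.21) and SOCS1 (1.08). PIAS3, a protein that binds STAT3, was at -0.26 and was not called. Among 19 known targets of STAT3, 15 were called higher and 1 lower (FGG, a fibrinogen chain, at -1.06), with a median of 2.70. The 19 include HAMP and LBP, which passed the filter on low counts only through LPS 16h. In the other groups they reached at most 0.115 and 0.109 CPM. For these genes a higher level at 16 hours was set by the filter, so they add no support to that count or median. For both lists, the shares over all genes tested were 8.25% higher and 6.11% lower. Of the targets called, the 6 with the largest change were SERPINA3, a protease inhibitor of the acute phase (6.79), BATF, a transcription factor of immune cells (5.20), TIMP1, an inhibitor of matrix proteases (4.34), SAA1, an acute-phase protein (3.99), BCL3, a cofactor of NF-kB (3.36), and CEBPD, an acute-phase transcription factor (3.22). These targets also respond to other signals raised by LPS, and the counts cannot assign them to gp130.

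SERPINA3 varied within the controls. It stood at 1.74, 3.47, 0.248 and 36.0 CPM in the preterm controls and at 282, 431, 292 and 315 CPM in LPS 16h, with animal 209 the highest control. TIMP1 was tighter, at 76.9, 70.5, 60.1 and 55.9 CPM in preterm controls, 791, 1775, 1552 and 1403 CPM in LPS 16h, and 64.4 to 87.6 CPM in the 6 animals delivered at 5 days. SAA1 rested on a mean of 2.25 counts in preterm controls, so its fold change depends on the added count. At 16 hours it stood at 1.49, 2.23, 1.69 and 3.58 CPM.

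At 5 days fewer genes of these lists were called. In LPS 5d they were 3 of 41, all higher and all targets of STAT3: BATF (log2 fold change 2.36, adjusted p = 0.00234), NNMT, a nicotinamide methyltransferase (2.12, adjusted p = 0.0108), and JUNB, a transcription factor of the AP-1 family (1.76, adjusted p = 0.0216). In LPS + Beta-Ac 5d they were 6 of 41, all higher: BATF (3.71), SAA1 (3.21), PTPN6 (1.35), PIM1, a survival kinase (1.07), STAT5A (1.06) and SBNO2, a transcriptional coregulator (1.01). The medians over the 41 genes were 0.24 and 0.12, beside 0.00 and -0.01 over all genes. Of all genes tested, 2.6% were called higher and 2.24% lower in LPS 5d, and 4.05% and 2.44% in LPS + Beta-Ac 5d. In term controls 4 targets were called higher, namely FOS (5.16), JUNB (2.08), CEBPD (1.33) and CEBPB (1.20), and 1 receptor, CNTFR, was called lower (-1.10, adjusted p = 0.0210). Of all genes tested, 1.11% were called higher and 0.953% lower in term controls. NNMT, JUNB, FOS, CEBPB, PIM1 and SBNO2 were named after their values were seen. FOS, an immediate-early gene, stood at 1580.5 and 587 CPM in the term controls and at 128, 36.6, 5.11 and 21.4 CPM in the preterm controls. Between LPS + Beta-Ac 5d and LPS 5d 0 of the 41 were called by limma, with 4 at an unadjusted p under 0.05. Over all genes 0.0885% were called higher and 0% lower. In LPS 16h 20 of the 41 were called higher than in LPS 5d and 0 lower, beside 7.94% and 6.66% of all genes. HAMP and LBP, which passed the filter only through LPS 16h, are again among the 41.

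**Figure D4:**
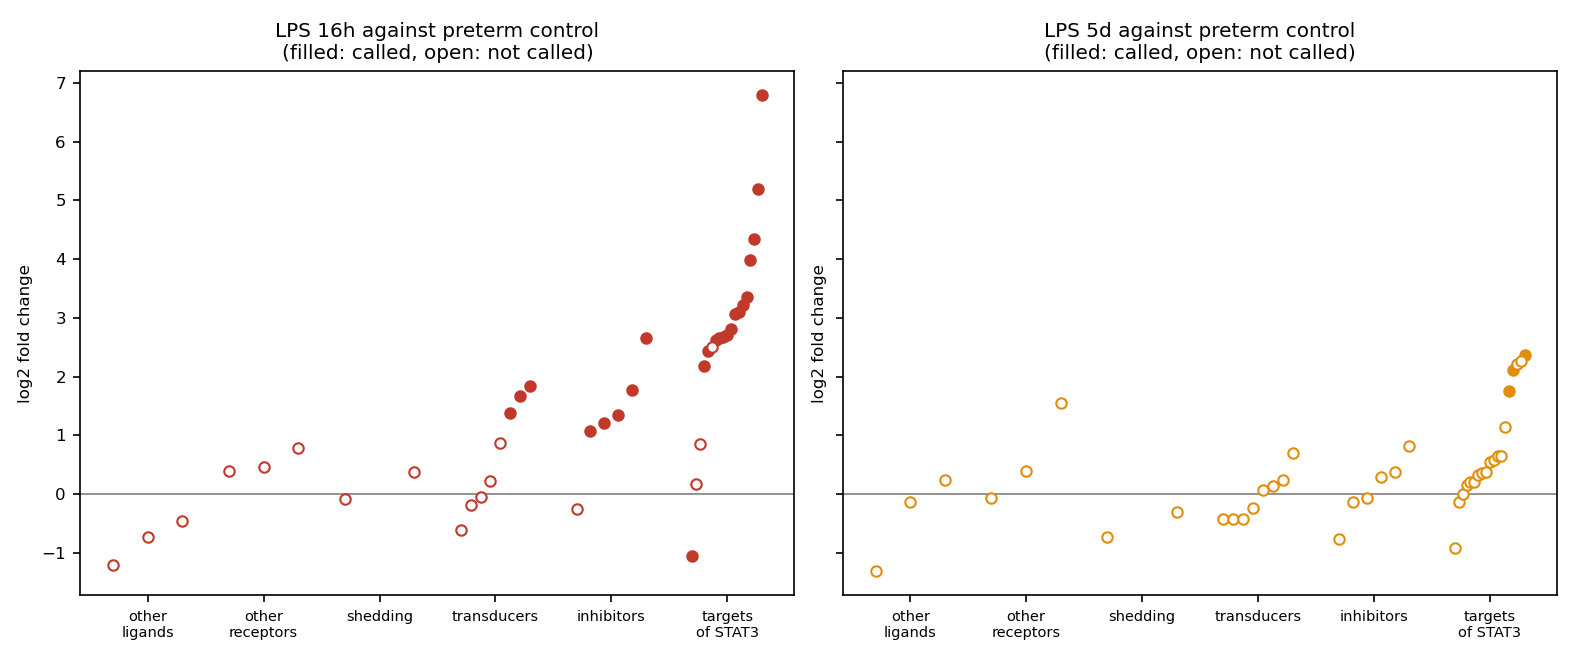
Each point is 1 gene of the wider pathway, with its log2 fold change against preterm controls at 16 hours (left) and 5 days (right) after LPS, arranged by role, filled where called and open otherwise. The inhibitors and targets of STAT3 lie mostly above 1 at 16 hours, and 3 targets are filled at 5 days.

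The summed markers of neutrophils and of monocytes and macrophages were also highest at 16 hours. The 8 neutrophil markers summed to 30.3 to 61.4 CPM in preterm controls, 1406 to 2155 CPM in LPS 16h, 87.3 to 140.1 CPM in LPS 5d, 196 to 388 CPM in LPS + Beta-Ac 5d and 130.3 to 166 CPM in term controls. Against preterm controls 6, 3, 7 and 4 of the 8 were called higher in those 4 groups in turn. The shares of all genes called higher were 8.25%, 2.6%, 4.05% and 1.11% in the same order. S100A9, a calcium-binding protein abundant in neutrophils, rose from 4.49 ± 2.17 CPM (SD, n = 4) to 955 ± 182 CPM (SD, n = 4) at 16 hours, whereas CXCR2, a receptor for neutrophil chemokines, was 14.3 ± 6.48 and 13.8 ± 3.84 CPM (SD, n = 4 each), and MPO, an enzyme of neutrophil granules, was 0.492 ± 0.503 and 0.501 ± 0.256 CPM (SD, n = 4 each).

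The 8 markers of monocytes and macrophages summed to 280.2 to 431 CPM in preterm controls, 1371 to 1641 CPM in LPS 16h, 339 to 388 CPM in LPS 5d, 510.1 to 800.0 CPM in LPS + Beta-Ac 5d and 372 to 406 CPM in term controls, with 6, 3, 6 and 1 of 8 called higher. The shares of all genes called higher were again 8.25%, 2.6%, 4.05% and 1.11%. In LPS 5d, LPS + Beta-Ac 5d and term controls 2 of the 8 markers had a negative log2 fold change. A defining marker, MARCO, a scavenger receptor of alveolar macrophages, was at 0 in all 4 preterm controls. The part of these cells in the changes of IL6, OSM, IL6R, OSMR, STAT3 and SOCS3 was not tested. Within the LPS + Beta-Ac 5d group animal 248 had the highest neutrophil sum (388 CPM), the highest IL6 (1.13 CPM) and the highest SOCS3 (199 CPM). At 16 hours the highest neutrophil sum was in animal 035 (2155 CPM), while IL6 was highest in animal 038 (252 CPM) and OSM in animal 029 (82.4 CPM). The highest group mean of LIFR, 93.0 CPM, was in LPS 5d. In that group 7 lung epithelium markers summed to 11384 to 17005 CPM, against 5991 to 8646 CPM in preterm controls and 6434 to 13638 CPM in LPS 16h. Most of that sum came from the surfactant protein genes SFTPB and SFTPC. By single marker the median log2 fold change of the 7 was -0.32 at 16 hours and 0.64 in LPS 5d. At 16 hours 1 was called higher (ABCA3, a surfactant lipid transporter) and 1 lower (AQP5, a water channel). The shares over all genes were 8.25% higher and 6.11% lower. Within LPS 5d, LIFR was highest in animal 242 (145 CPM), which had the lowest epithelial sum (11384 CPM), and lowest in animal 240 (64.3 CPM), which had the highest (17005 CPM). Term control 201 likewise had more LIFR than 200 (144 against 22.3 CPM) and a lower sum (12340 against 14982 CPM). In LPS + Beta-Ac 5d the order was different, and animal 255 had both the lowest LIFR (34.7 CPM) and the lowest sum (12192 CPM). The 4 endothelial (vessel lining) markers summed to 1413 to 1653 CPM in preterm controls and 1134 to 1210 CPM in LPS 16h. The ranges were 975 to 1415 CPM in LPS 5d, 1159 to 1387 CPM in LPS + Beta-Ac 5d and 840 to 1121 CPM in term controls. Against preterm controls all 4 had a negative log2 fold change in each of the other groups. By animal, these markers summed to 1415 CPM in animal 242 and 975 CPM in 240. They summed to 1121 CPM in term control 201 and 840 CPM in 200. In LPS + Beta-Ac 5d they summed to 1387 CPM in animal 255, the highest of that group. The part of white blood cells, epithelial cells or endothelial cells in the change of LIFR was not tested.

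**Figure D5:**
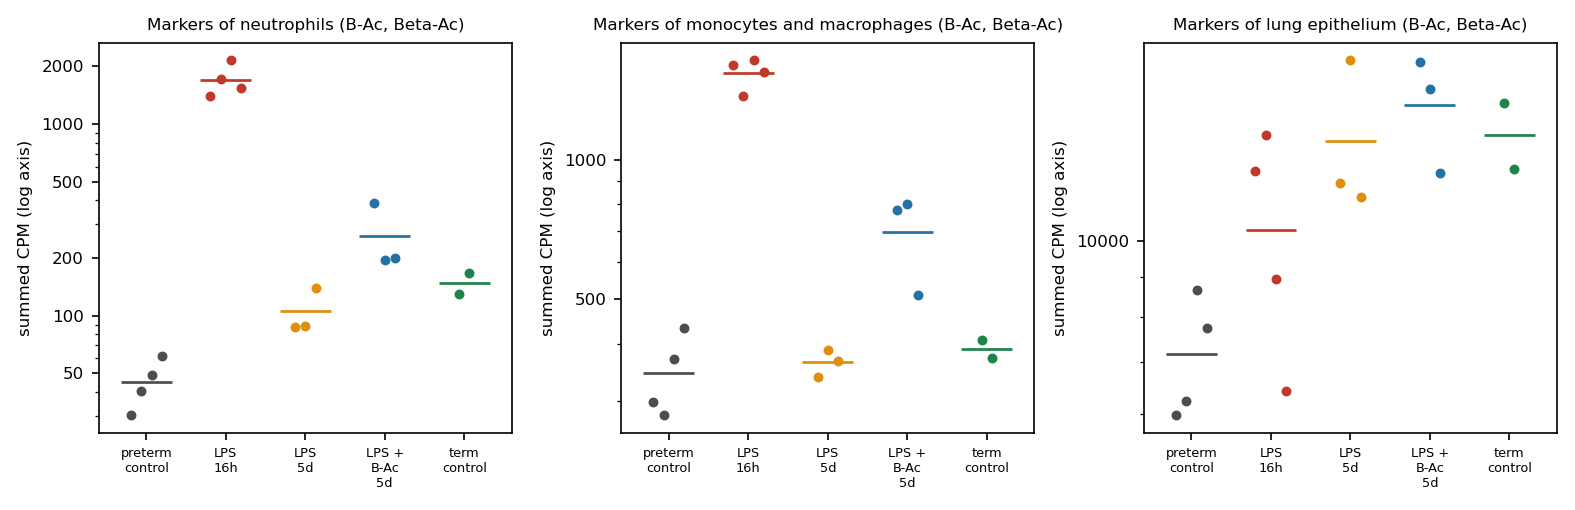
The summed CPM of markers of neutrophils, of monocytes and macrophages, and of lung epithelium is plotted on a log axis for every animal (points) with the group mean (line). Both white blood cell sums are highest in the 4 LPS 16h animals, and the epithelial sum is above all preterm controls in every animal delivered at 5 days or at term.

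Genes whose profile over the 16 animals was most like that of a member were sought among 15181 expressed genes, by the mean absolute difference between standardized log2 CPM values, in units of 1 SD. For IL6 they were MAP3K8 (0.132), a kinase of the Toll-like receptor pathway, LDHA (0.134), lactate dehydrogenase A, and NXPE3 (0.150). For OSMR they were ZDHHC9 (0.107), a palmitoyltransferase, IL1R1 (0.111), the signalling receptor for interleukin 1, and PPA1 (0.131), a pyrophosphatase. For SOCS3 they were CXCL3 (0.196), a neutrophil chemokine, CEBPD (0.208) and the member OSM (0.220). All of them had their highest group mean at 16 hours, and with groups this far apart a gene that rose in LPS 16h alone will be near IL6 by this measure. IL1R1, for example, had a log2 fold change of 2.66 at 16 hours (adjusted p = 1.82e-08), and CXCL3 one of 5.65 (adjusted p = 1.42e-08).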

How the data were processed

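Total RNA of frozen fetal lung was sequenced as 75 bp paired reads after polyA selection. The authors ran kallisto against MMUL10 (named as Mmul_10 in the submitters' processing notes), collapsed transcripts to genes with tximport, and tested with DESeq2. The values the authors deposited are counts, whole numbers for each gene ID in each animal, with no normalization, and how the estimates were rounded is not given in the sources used here. Reads shared by paralogs were divided by the estimation, and strand use was not given.

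Symbols were available for 17256 of 22515 gene IDs. Genes were kept with at least 0.371 CPM (10 counts in the median library) in 2 or more animals and 15 counts in all, which left 19199. TMM factors (30% trim of log ratios, 5% of mean levels) and log2 CPM with a prior count of 2 were computed, and limma 3.58.1 (R 4.3.3, trend and robust options) was fitted with 1 mean per group over all 16 animals, so that the groups shared 1 estimate of the spread. Limma on log2 CPM was used in place of the authors' count model. P-values were adjusted by Benjamini and Hochberg over the 19199 genes for each of 6 comparisons. The procedure was run on simulated counts with known changes of a single size, in equal numbers up and down. Fewer genes were changed there than were called at 16 hours. The simulation therefore does not cover changes as many as those or as large as that of IL6. Groups came from the labels, and animal numbers are not shared between groups.

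The named genes were every member, the called genes of each pathway list up to 6 by size at 16 hours, and 3 nearest profiles for IL6, OSMR and SOCS3. The members and lists were chosen with earlier results of these data known. Chi-square per degree of freedom between libraries of a group ran from 31.1 to 166, so no library was a repeat of another. Alternatives were other scalings, no filter, a prior count of 0.5, limma-voom, fits of 2 groups alone, no minimum fold and each animal left out. CLCF1, CNTF, EBI3, IL11RA, HP and A2M were not matched to an ID, IL27, FGA, FGB, CRP and FGL1 did not pass the filter, and none of these was tested. Of the pathway lists, 1 gene is counted in the totals and its own result is not reported here.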

Additional observations from a re-analysis of the deposited data

Results flagged for a closer look

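In preterm controls IL6 of animal 113 stood apart: its gap to the nearest animal was 0.919 of the group's range on the log2 scale, on 7 counts against 1 in each of the others. In LPS 16h IL6ST of animal 029 was low by the same measure (0.895 of the range), at 437 CPM against 706 to 746 CPM in the other 3. Both passed Dixon's 95% limit for 4 samples, and they were 2 of 20 groups of values examined, where chance gives about 1 in 20.

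The effect of LPS differed between the 16-hour and 5-day groups, by limma's test of the difference itself, for 8 of 10 members. Of all genes tested, 7.94% were called higher at 16 hours and 6.66% lower. The log2 difference (LPS 16h minus LPS 5d) was 8.93 for IL6, 5.83 for OSM, 4.96 for LIF, 2.78 for OSMR, 2.71 for SOCS3, 1.60 for STAT3, 1.18 for IL6ST and -2.88 for LIFR. The LPS 16h libraries were also the deepest and the richest in markers of neutrophils, and the part of either in these differences was not tested.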

How the results depend on the processing

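Of 808 values of members recomputed under an alternative, 748 kept their direction and their side of the call, 33 lost a call, 3 gained one and 24 turned in direction, and the cause was not tested. With each animal left out in turn, 7 to 8 members were called in LPS 16h against preterm controls, 3 to 4 in LPS 5d, 2 to 4 in LPS + Beta-Ac 5d (2 without preterm control 092 or LPS + Beta-Ac animal 248), 1 to 3 in term controls (1 without animal 200), 8 to 8 in LPS 16h against LPS 5d and 0 to 0 in LPS + Beta-Ac 5d against LPS 5d. In term controls limma-voom called 1 member (SOCS3), a fit of the 2 groups alone 0, and the fit without animals 209 and 200 together, chosen after seeing the data, 1 (LIFR).

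Directions that turned belonged to uncalled values, the largest being that of LIF in term controls (1.00). With each animal left out, LIFR at 16 hours ran from -0.43 to 0.23 (0.09 without 209 and 200), OSMR in LPS + Beta-Ac 5d from -0.049 to 0.19, and in term controls IL11 from -0.71 to 0.90 (-0.90 without both) and LIF from -0.18 to 2.19 (-0.30 without both). Between LPS + Beta-Ac 5d and LPS 5d, IL11 ran from -0.60 to 0.26 (0.0096 by limma-voom), STAT3 from -0.14 to 0.16, IL6 from -0.13 to 0.94 and IL6ST from -0.25 to 0.047.

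Scaling by library totals alone moved the median of all genes at 16 hours from -0.09 to -0.29 and the share of higher genes among those called from 57.4% to 39.4% (54.4% to 38% against LPS 5d), and with it IL6R at 16 hours (0.83) and IL6ST against LPS 5d (0.99) fell below 2-fold. IL6 could not be tested against preterm controls at 5 days in fits of 2 groups, since it failed the filter. With no minimum fold 7383, 2827, 3323 and 770 genes passed in LPS 16h, LPS 5d, LPS + Beta-Ac 5d and term controls, against 2757, 930, 1246 and 397, and 6731 against 2802 between LPS 16h and LPS 5d. In term controls a fit of 2 groups called 105 genes and the fit without 209 and 200 called 241. Between the 5-day groups 17 were called, 3 by limma-voom, 0 in a fit of 2 groups, and 2 to 57 with 1 animal left out (2 without LPS 5d animal 240, 4 without LPS + Beta-Ac animal 249, 5 without 239 or 248 and 57 without 255). With 1 animal left out the term count ran from 129 (without 200) to 560 (without 209), and was 239 without 113 and 255 without 092. With 10 and 13 counts in all preterm controls, depth limits the control levels of IL6 and OSM.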
